A study of Homo sapiens with 14 samples.

Results

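The clustered histone genes are the protein-coding genes for the replication-dependent histones, taken here as every GENCODE symbol from H1-1 to H1-6 and every symbol that starts with H2AC, H2BC, H3C or H4C followed by a digit. The rule gave 70 genes, of which 66 were found by gene identifier among the 58440 genes of the deposited tables: 6 H1, 15 H2A, 19 H2B, 11 H3 and 15 H4 genes. The other 4 (H2AC18, H2AC19, H3C2 and H3C3) carry newer identifiers and were found through their transcripts only, so their levels stand outside every sum and test below and are given separately, while counts of positions and sequence features cover all 70. On GRCh38, 55 of the 70 genes lie in the cluster at chr6:25723397-27893891, 11 lie at chr1:149782689-149887965 and 2 at chr1:228434777-228463104. H4C16 on chromosome 12 and H2BC12L on chromosome 21 lie apart from the others.

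The study measured poly(A)-selected RNA of HEK-293T cells (an adherent line derived from human embryonic kidney), of Jurkat cells (a suspension line from a human T cell leukemia) and of mixtures of both. The mixtures held 100%, 80%, 60%, 50%, 40%, 20% or 0% HEK cells, the rest being Jurkat cells, with the same number of cells in every mixture and 2 libraries for each percentage. ERCC spike-ins, synthetic RNAs of known amount, were added to the mRNA of every sample. The labels call the replicates technical and give no treatment or genotype, so p-values measure only the spread between such libraries.

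Histones H2A, H2B, H3 and H4 form the core of the nucleosome, and H1 binds the linker DNA between nucleosomes. Replication-dependent histone genes are transcribed in S phase, and most of their mRNAs end in a conserved stem-loop, bound by SLBP, in place of a poly(A) tail. A library primed with oligo-dT therefore reads mainly those histone transcripts that carry a run of adenines at or near the 3′ end, and the values here are levels of captured RNA and not of histone protein or of all histone mRNA.

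The stem-loop was searched for in the 100 genomic bases after each stop codon, because it is the feature that sets these mRNAs apart. It was found in 69 of the 70 genes, at 22 to 67 bases after the stop codon (median 35), and in 13 of 19849 other coding genes (0.0655%). H2BC12L was the exception. The sequences of members whose levels are described below are shown with the 16-base stem-loop in capitals, on the strand of the gene in GRCh38, with stop codons from GENCODE release 44.
H4C3, chr6:26104310-26104339, plus strand: acccaaaGGCCCTTTTCAGGGCCgctcaca
H4C9, chr6:27139647-27139676, plus strand: ctaaaaaGGCCCTTTTTAGGGCCcctaagc
H4C14, chr1:149833025-149833054, plus strand: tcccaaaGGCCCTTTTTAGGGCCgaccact
H2AC25, chr1:228457362-228457391, minus strand: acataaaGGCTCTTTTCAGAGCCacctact
H2BC12, chr6:27146359-27146388, minus strand: ccccaaaGGCTCTTTTAAGAGCCacttaaa
H2BC15, chr6:27839083-27839112, plus strand: ccccaaaGGCTCTTTTCAGAGCCactcagt
H1-2, chr6:26055737-26055766, minus strand: cccaaaaGGCTCTTTTCAGAGCCaccactg
H1-3, chr6:26234210-26234239, minus strand: tttaaacGGCTCTTTTCAGAGCCacccaca
H1-5, chr6:27866790-27866819, minus strand: ccccaaaGGCTCTTTTCAGAGCCacccaga

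The same 16 bases, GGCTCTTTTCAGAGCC, were shared by 40 members of the H1, H2A, H2B and H3 families. The form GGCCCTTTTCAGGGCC occurred in 10 genes, all of them H4. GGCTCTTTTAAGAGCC occurred in 9 genes, and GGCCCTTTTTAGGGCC in 4 H4 genes (H4C9, H4C12, H4C14 and H4C15). The remaining 6 genes each had a form of their own.

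H4C3 differed from the other members in the bases just before its stem-loop. The longest A-rich stretch of its transcript held 18 adenines in 20 bases and began 31 bases after the stop codon. It is shown with those 20 bases in capitals, since H4C3 was the most abundant member of these libraries.
H4C3, chr6:26104286-26104315, plus strand: acttcAAAAAACAAAAACAAAAAAAcccaa
In the same 100 bases after the stop codon, the median of the 70 members was 9 adenines in the richest 20 bases and the second highest (H2BC12L) was 15. Of 19849 other coding genes, 48 (0.242%) reached 18. This search was made after the level of H4C3 was known, and the part of the A-rich stretch in that level was not tested.

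The poly(A) signal AATAAA was present within 1000 genomic bases after the stop codon in 33 of the 70 genes and in 62.1% of other coding genes. Of the 3 members with the highest mean CPM over the 14 libraries, H4C3 and H1-2 had one, at 233 and 55 bases after the stop. H2AC25 had none. Promoters of RefSeq (GRCh38.p14, 300 bases around the start) were searched on both strands. The octamer ATTTGCAT was found in 11 of 16 H2A and 14 of 18 H2B promoters, in 1 of 11 H3 promoters and in none of 6 H1 or 13 H4 promoters, against 1.71% of 27241 promoters of other genes. CCAAT was found in all 16 H2A, 18 H2B, 11 H3 and 6 H1 promoters and in 3 of 13 H4 promoters, against 35.6% of the promoters of other genes. Among the 70 genes, 24 formed 12 head-to-head pairs of an H2A and an H2B gene, such as H2AC25 with H2BC26 and H2BC12 with H2AC12.

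Depth ran from 4468822 gene counts (0% HEK, replicate 1) to 28303668 (50% HEK, replicate 1), so that 3 counts, used here as the floor, equalled 0.106 to 0.671 CPM, where CPM are counts scaled to 1000000 gene counts of the library. The T cell markers (CD3 chains, LCK, PTPRC and others) summed to 5.82 and 2.64 CPM in the pure HEK libraries and to 2451 and 2887 CPM in the pure Jurkat libraries, and all 10 were called higher in Jurkat. Of 8 epithelial and kidney markers, 7 were called higher in HEK, the exception being VIM. Gene counts per spike-in count were 147 and 97.3 in pure HEK and 12.1 and 12.3 in pure Jurkat. The file names form 2 groups that the labels do not explain. Both pure HEK libraries belong to one and both pure Jurkat libraries to the other, so in these 4 libraries the effects of line and of file group cannot be told apart.

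Clustered histone genes made up a small share of the captured RNA in every library. Their summed level was 115 and 109 CPM in pure HEK and 98.8 and 131 CPM in pure Jurkat, and ran between 103 and 180 CPM in the mixed libraries. The mean was 112 ± 4.57 CPM in pure HEK and 115 ± 22.6 CPM in pure Jurkat (SD, n = 2), and the ranges of the lines overlapped. By comparison, 12 genes of a list of replication-independent histones summed to 4013 and 4009 CPM in pure HEK and to 3294 and 3404 CPM in pure Jurkat. Most of that list is known to be polyadenylated, but H2AX, one of its members, is among the 13 other genes with a stem-loop. The 95% Wilson interval of the summed level, which covers counting error only, was 109 to 122 CPM in the first pure HEK library and 89.9 to 108 CPM in the first pure Jurkat library. In the second libraries the order was reversed, with 104 to 114 CPM in HEK and 122 to 140 CPM in Jurkat.

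**Figure D1:**
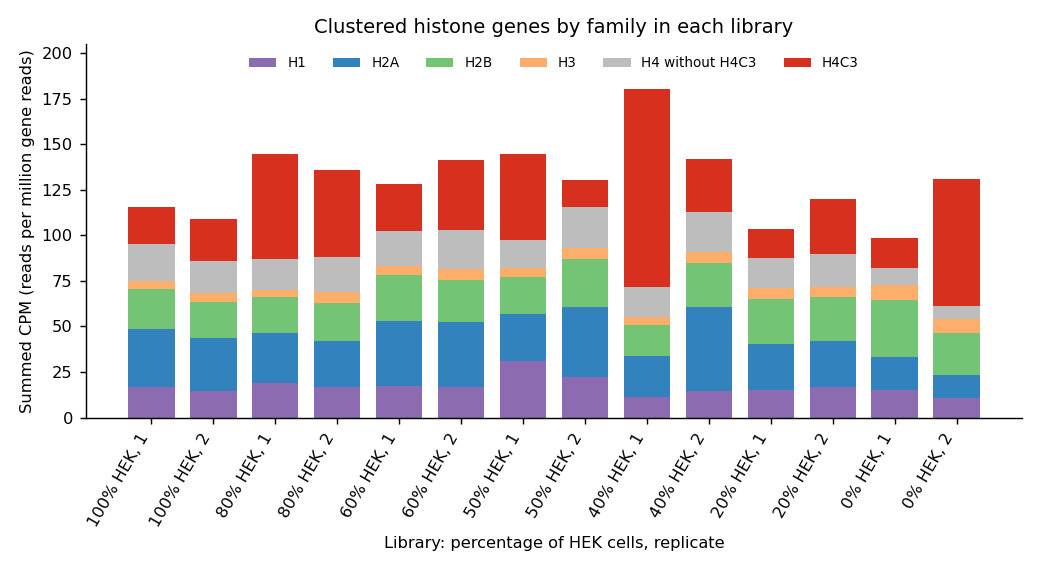
Summed CPM (counts scaled to 1000000 gene counts) of the clustered histone genes in each of the 14 libraries, stacked by family, with H4C3 drawn apart from the other H4 genes. H4C3 ranges from 14.8 to 108 CPM, while the sum of all other members stays between 61.1 and 115 CPM.

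Per spike-in count the class differed between the lines. It had 17.0 and 10.6 counts per 1000 spike-in counts in pure HEK and 1.19 and 1.61 in pure Jurkat. The groups did not overlap, and the direction was that of gene counts as a whole. By design the pure libraries held 1 cell type each and the same number of cells. How closely the cell numbers matched was not tested.

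Most members were at or near the floor. No count was found in any library for 6 of them (H1-1, H2AC1, H2AC7, H2BC1, H2BC3 and H4C7), and 12 never exceeded 3 counts. Only H1-2, H2AC20, H2AC25, H2BC15, H4C3 and H4C15 had at least 10 counts in every library. A mean of at least 1 CPM over the 14 libraries was reached by 18 members and a mean of at least 10 CPM by H4C3, H2AC25 and H1-2. The 3 highest members of each library supplied between 43.5% and 75% of the counts of the class. They were H4C3, H2AC25 and H1-2 except in pure Jurkat, where H2BC15 stood in the place of H2AC25.

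**Figure D2:**
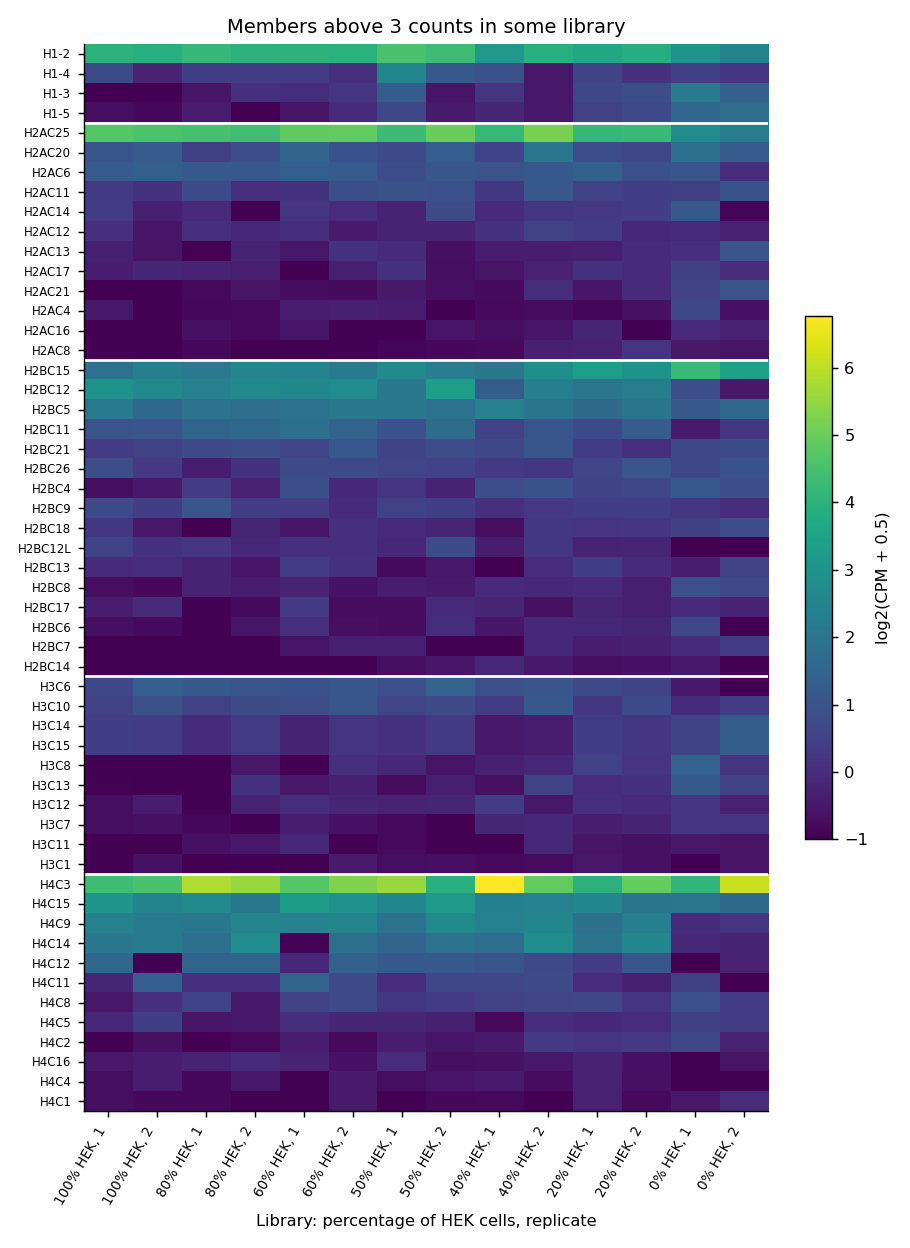
Level of the 54 members that exceeded 3 counts in some library, as log2(CPM + 0.5), by family (white lines) and library. H4C3, H2AC25, H1-2 and H2BC15 stand out, and most other rows are close to the floor of counting.

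Pure HEK and pure Jurkat libraries were compared to ask which members differ between the lines. HEK cells had more H1-2, H2AC25, H2BC12, H4C9 and H4C14 RNA, and Jurkat cells more H1-3, H1-5, H2BC4 and H2BC15 RNA, relative to the total. Enough counts for edgeR's quasi-likelihood test, adjusted by the Benjamini-Hochberg method over 15794 genes, were present for 15 members. Of these, 5 were called higher in HEK, where 24.2% of all genes tested were, and 4 higher in Jurkat, where 19.0% were. The median log2 fold change of the tested members had no stable sign. It was 0.77 here and negative in 4 alternatives: -0.36 without the second pure HEK library, -0.59 with all 14 libraries in 1 fit, -0.79 in DESeq2 and -0.89 with no filter on low counts. It was positive in the other 6, and the members tested were not the same in all of them. Without one or the other pure HEK library, H2AC25 alone remained of the 5 higher in HEK and 2 members remained higher in Jurkat (H1-3 with H1-5, or H1-3 with H2BC15). The share of all genes called fell as well, to 11.3% or 11.0% higher in HEK and to 8.50% or 8.46% higher in Jurkat. The log2 fold changes moved little, with 3.17 or 3.07 for H4C14, 2.63 or 2.88 for H4C9, 2.87 or 3.18 for H2BC12 and 0.98 or 1.08 for H1-2. In these fits the 1 remaining HEK library is assumed to vary like the Jurkat libraries. All these directions are relative to total RNA. With library sizes from the spike-ins the median log2 fold change over all genes moved to 3.61. The log2 fold change of H2BC15 turned to 1.41 and that of H2BC4 to -0.04. H1-3 was still called higher in Jurkat, and H1-5 had a log2 fold change of -1.77 without a call.

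Among the H1 genes, which encode linker histones, H1-2 had 15.4 and 14.2 CPM in pure HEK and 7.61 and 5.16 CPM in pure Jurkat. The libraries of the lines did not overlap, and edgeR gave a log2 fold change of 1.01 (SE 0.28, adjusted p = 0.036). The call was lost in DESeq2 (log2 fold change 1.04, adjusted p = 0.10) and without the second Jurkat library (0.75, adjusted p = 0.083 in edgeR). H1-5 had 0.106 and 0.0660 CPM in pure HEK, which is 1 count in each library, and 2.46 and 2.90 CPM in pure Jurkat. It was 33.4 times higher in Jurkat by pooled counts, with a 95% counting interval of 8.46 to 289. This size is uncertain, since it rests on 2 pooled HEK counts, under the floor of 3. The edgeR log2 fold change of H1-5 was -5.04 (SE 0.58, adjusted p = 0.0030). H1-3 had 0 counts in both pure HEK libraries and 4.03 and 2.10 CPM in pure Jurkat. It was at least 23.8-fold higher in Jurkat, taking 3 counts over both HEK libraries as the floor (edgeR, adjusted p = 0.0071). Unnamed genes overlap H1-3 on the opposite strand.

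H1-4 had 1.16 and 0.330 CPM in pure HEK and 0.895 and 0.645 CPM in pure Jurkat, and the lines overlapped. Thus the H1 genes with detectable RNA differed in kind between the lines: H1-2 was the highest H1 gene in each, and H1-3 and H1-5 came next in Jurkat but were at or under the floor in HEK. Summed over the family, H1 genes had 15.7 ± 1.46 CPM in pure HEK and 12.9 ± 2.97 CPM in pure Jurkat (SD, n = 2).

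Among the H2A genes, H2AC25, a member of the small chromosome 1 cluster, had 25.7 and 23.6 CPM in pure HEK and 6.27 and 4.35 CPM in pure Jurkat. Every HEK value lay above every Jurkat value, with an edgeR log2 fold change of 2.00 (SE 0.27, adjusted p = 0.0045). This call held in all 10 alternative analyses of the pure lines. Its gene span in GENCODE release 44 overlaps the pseudogene RPL23AP15 on the same strand. The counted model of H2AC25 was not spliced and ran 446 bases past the stop codon. H2AC20 had 1.57 and 1.86 CPM in pure HEK and 3.09 and 1.85 CPM in pure Jurkat, and was not called (edgeR, adjusted p = 0.25). H2AC6 was not called either (log2 fold change 0.77, SE 0.60, adjusted p = 0.35 in edgeR). The family as a whole summed to 31.9 and 29.2 CPM in pure HEK and to 18.1 and 12.7 CPM in pure Jurkat.

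Among the H2B genes, members moved in opposite directions. H2BC12 had 7.46 and 5.88 CPM in pure HEK and 1.31 and 0.216 CPM in pure Jurkat, a log2 fold change of 3.04 (SE 0.70, adjusted p = 0.022 in edgeR). It was 5.03 without the first Jurkat library and 2.08 without the second, so its size rests on single libraries. H2BC15 had 3.30 and 4.61 CPM in pure HEK and 18.6 and 10.4 CPM in pure Jurkat, a log2 fold change of -2.06 (SE 0.38, adjusted p = 0.012 in edgeR). H2BC15 was the second highest member in Jurkat by mean CPM, after H4C3, and the groups were far apart. H2BC4 had 0.117 and 0.224 CPM in pure HEK and 1.72 and 1.3 CPM in pure Jurkat (log2 fold change -3.35, SE 0.62, adjusted p = 0.011 in edgeR), and was not called in DESeq2 (log2 fold change -3.48, adjusted p = 0.059). Its gene span in GENCODE release 44 overlaps H4C3 on the opposite strand. The counted models of H2BC4 ran at most 8651 bases past its stop codon, however, and ended short of H4C3. The library protocol keeps strand, but whether the counting used it is not given in the sources used here.

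H2BC5 and H2BC11 were not called, with log2 fold changes of 0.30 (SE 0.42) and 1.48 (SE 0.60). H2BC12L, the copy on chromosome 21 that lacks the stem-loop, had 0.951 and 0.611 CPM in pure HEK and no count in pure Jurkat, at least 2.6-fold higher in HEK. It shares 98.4% of its 40-base words with other genes, H2BC12 among them, so the split of reads between these copies is uncertain.

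No H3 gene passed the filter on low counts for the test between the pure lines. In the mixed libraries H3C6, H3C10 and the inseparable H3C14 and H3C15 were tested for a slope, and none was called. H3C6 had the highest mean CPM of them over the 14 libraries, though not over the pure libraries or by TPM, with 1.06 and 1.98 CPM in pure HEK and 0.224 and 0 CPM in pure Jurkat. It was 17.3 times higher in HEK by pooled counts, but rests on a single Jurkat count and has a counting interval of 2.94 to 702. H3C8, in contrast, had no count in pure HEK and 2.24 and 0.645 CPM in pure Jurkat, at least 10.8-fold higher. The family summed to 3.97 and 5.48 CPM in pure HEK and to 8.28 and 7.59 CPM in pure Jurkat.

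Among the H4 genes, H4C9 had 4.87 and 4.05 CPM in pure HEK and 0.448 and 0.645 CPM in pure Jurkat, a log2 fold change of 2.73 (SE 0.45, adjusted p = 0.0081 in edgeR). H4C14 had 3.78 and 4.02 CPM in pure HEK and 0.430 and 0.355 CPM in pure Jurkat, a log2 fold change of 3.11 (SE 0.47, adjusted p = 0.0065 in edgeR), and was not called with all 14 libraries in 1 edgeR fit (log2 fold change 3.12, adjusted p = 0.064). Both showed a clear gap between the lines and both carry the loop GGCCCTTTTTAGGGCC. H4C15 and H4C12 carry it too, but H4C15 was not called and H4C12 was too low for the test. H4C14 shares all of its 40-base words with H4C15, so the split of reads between this pair is uncertain. H4C15 had 7.86 and 5.22 CPM in pure HEK and 3.60 and 2.69 CPM in pure Jurkat and was not called by itself (edgeR, adjusted p = 0.12). With the pair summed, edgeR gave a log2 fold change of 1.34 (adjusted p = 0.019).

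H4C3 was the highest member by length-scaled level, with 53.2 ± 5.18 TPM in pure HEK and 103 ± 88.5 TPM in pure Jurkat (SD, n = 2). Its CPM were 20.1 and 22.9 in pure HEK and 16.8 and 69.6 in pure Jurkat. The Jurkat values lay on either side of the HEK values, and the log2 fold change of -1.25 (SE 0.65) was not called (adjusted p = 0.18 in edgeR). Without the second Jurkat library it was 0.15, and without the first it was -1.93, called with an adjusted p of 0.0082 in edgeR.

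**Figure D3:**
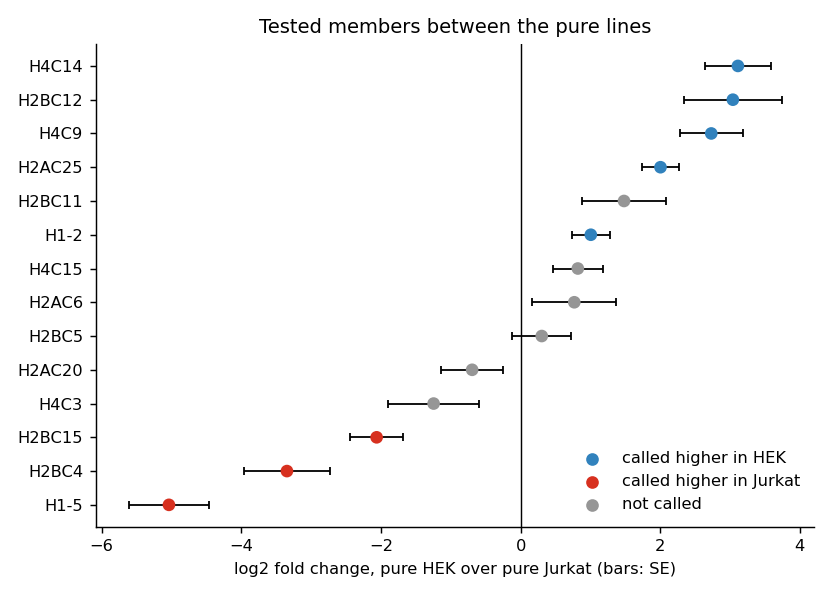
The log2 fold change of pure HEK over pure Jurkat for 14 of the 15 tested members, with bars of 1 SE and 2 libraries a line. H1-3 is left out because it had no count in pure HEK. Called members range from -5.04 (H1-5) to 3.11 (H4C14).

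By TPM, which divides by transcript length, the order in pure HEK was H4C3, H2AC25 (28.2 ± 1.53 TPM), H1-2 (24.1 ± 1.24 TPM) and H2BC12 (19.1 ± 3.09 TPM). The neighbours H2AC25 and H1-2 lay more than 1 SD apart, and so did H1-2 and H2BC12. By CPM, H2AC25 (24.7 ± 1.48) stood above H4C3 (21.5 ± 1.97) in pure HEK. Whether counts in these oligo-dT primed libraries scale with transcript length was not tested. In pure Jurkat H4C3 was followed, well below it, by H1-2 (10.1 ± 2.88 TPM), H2BC15 (8.22 ± 3.40 TPM), H2AC20 (6.72 ± 2.47 TPM) and H2AC25 (5.92 ± 1.59 TPM), and neighbours among these last 4 did not differ beyond their spread. H2BC12 stood at 2.14 ± 2.18 TPM there. H4C12, named for its mean TPM, had 2.59 and 0 CPM in pure HEK and 0 and 0.322 CPM in pure Jurkat. It shares 92.8% of its 40-base words, chiefly with H4C11, whose values were 0.372 and 2.02 CPM in pure HEK.

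The 51 members too low for the test summed to 17.8 and 16.1 CPM in pure HEK and to 28.9 and 25.4 CPM in pure Jurkat. They were set apart by a filter on these same libraries, so the difference is a description. Of all 57 members with a count in a pure library, 25 had both Jurkat values above both HEK values, where 20.1% of 31898 such genes did, and 14 had both HEK values higher, where 34.1% of genes did. A count in Jurkat and none in HEK was found for 11 members (background 8.10%), and the reverse for 2 (background 20.8%), H2BC12L and H4C4.

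The pure Jurkat libraries were the shallowest, yet 51 and 48 members had at least 1 count there, against 43 in each pure HEK library. Over all genes the order was the other way, with 21450 and 22277 genes in pure Jurkat and 24915 and 26865 in pure HEK. More members were thus detected at lower depth. Members picked out after their values were seen are H2AC21, with no count in pure HEK and 0.935 and 1.51 CPM in pure Jurkat, H2BC8, with 1 count in each pure HEK library and 1.34 and 1.13 CPM in pure Jurkat, and H3C13, with 0.0180 and 0 CPM in pure HEK and 1.82 and 0.925 CPM in pure Jurkat. H3C13 shares 75.8% of its 40-base words with other genes. The filter on low counts left all 3 out of the test between the pure lines.

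The 10 mixed libraries show how members follow the share of HEK cells, independently of the pure libraries. In the edgeR test of a slope over the percentage of HEK cells, 33 members were tested. None was called rising, where 0.643% of 18516 genes were, and 1 was called falling, where 4.82% were. At an unadjusted p under 0.05 there were 5 members (18.6% of all genes). DESeq2 called none of 49 members rising and 2 falling, where 1.09% and 5.21% of all genes were.

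The member called was H4C2, which had 0 and 0.0702 CPM at 80% HEK, 0.258 and 0.0773 CPM at 60%, 0.247 and 0.186 CPM at 50%, 0.232 and 0.723 CPM at 40%, and 0.637 and 0.711 CPM at 20%. Both libraries with 80% HEK were below all others in CPM. The margin was slight: the second library with 80% HEK held 1.03 counts and the second with 60% HEK 1 count, under the floor of 3. The slope was -0.61 per 10 points on the log2 scale (SE 0.14, adjusted p = 0.023 in edgeR). The largest of these values, 0.723 CPM, is 7 counts. The call was lost in 8 of 16 alternatives, among them the fit with file group as a term (slope -0.58, adjusted p = 0.21). In the pure libraries H4C2 had 0 and 0.132 CPM in HEK and 1.12 and 0.322 CPM in Jurkat. The filter on low counts left it out of the test between the pure lines.

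Of the 9 members called between the pure lines, 8 had slopes in the direction of that difference and 1, H4C14, sloped the other way (-0.05, SE 0.14), and none of these slopes was called. The lowest unadjusted p among the 9 belonged to H2BC15 and H1-5. H1-5 had 0.902 and 1.14 CPM at 20% HEK and 0.264 and 0 CPM at 80%, a slope of -0.41 (SE 0.17, adjusted p = 0.21 in edgeR). H2BC15 had 9.79 and 7.45 CPM at 20% HEK and 4.14 and 5.27 CPM at 80%, a slope of -0.15 (SE 0.05, adjusted p = 0.14 in edgeR). H2BC11 sloped upward by 0.14 (SE 0.07, adjusted p = 0.27 in edgeR).

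Pure HEK libraries had more gene counts per spike-in count than pure Jurkat libraries. The mixed libraries were therefore also set against additive mixing, with that ratio taken as the coefficient of RNA per cell. The coefficient from the pure libraries was 10.0, which places the HEK share of RNA at 71.5% in the mixtures with 20% HEK cells and at 97.6% in those with 80%. Fitted from genes of 1 line in each library instead, the HEK share was lower, at 56.8% and 58.2% with 20% HEK cells and at 96.3% and 96.2% with 80%. The summed level of the class was above the additive value in 9 of 10 mixed libraries, by a mean of 0.27 ± 0.21 on the log2 scale (SD, n = 10). A coefficient of 6 also gave 0.27. This is no check of the coefficient, because the pure means of the class were close (112 CPM in HEK and 115 CPM in Jurkat). The additive value of the sum therefore hardly depends on the HEK share. Without H4C3 it was above in 7 of 10, by 0.10 ± 0.20. H4C3 by itself averaged 41.4 CPM in the mixed libraries against 24.1 CPM for additive mixing, and was above it in 8 of 10 (7 with the fitted share).

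H2AC25 averaged 24.0 CPM against 22.4 CPM and H1-2 15.5 CPM against 13.8 CPM, above the additive value in 4 and in 8 of 10 libraries (6 and 9 with the fitted share). H2BC12 averaged 5.05 CPM against 5.97 CPM and was above in 2 of 10 (3 with the fitted share). H2BC4 was above it in all 10 libraries, at 0.866 CPM against 0.329 CPM. With the fitted share, the additive value of H2BC4 became 0.417 CPM and 9 of 10 libraries were above it. For H1-5 the values were 0.487 CPM observed and 0.393 CPM additive, above in 5 of 10. With the fitted share its additive value was 0.564 CPM, which the mean observed level did not reach, and 3 of 10 libraries were above it.

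**Figure D4:**
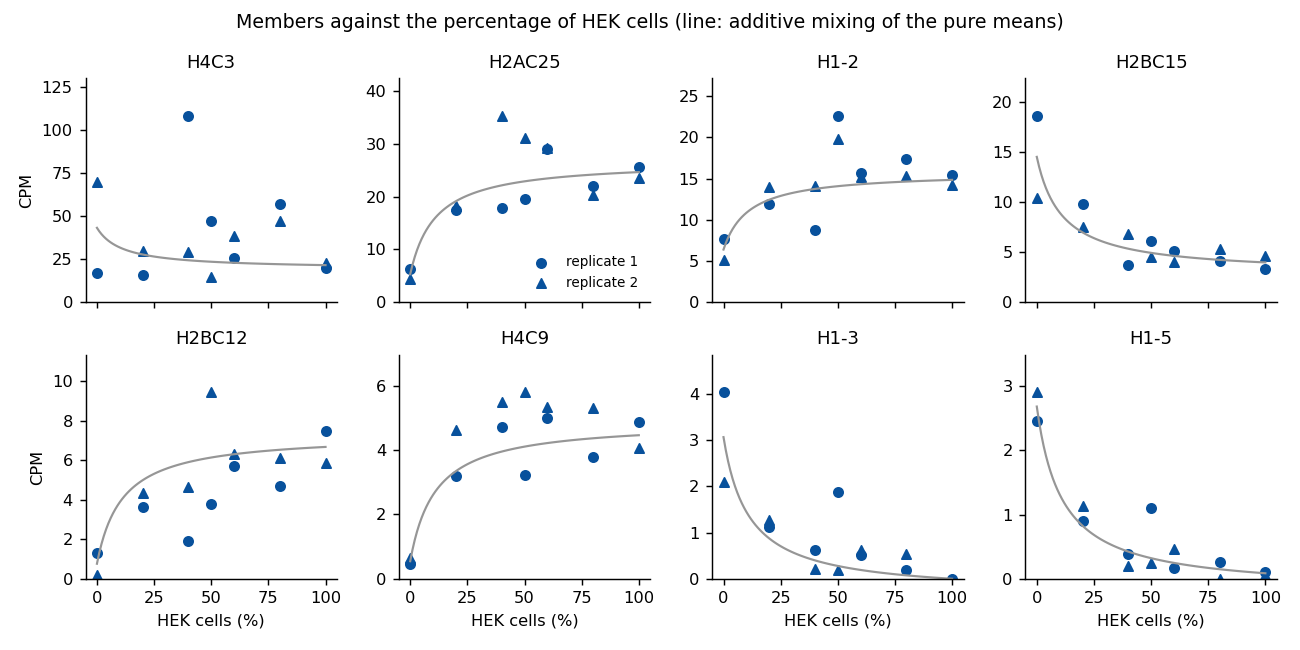
CPM of 8 members in each library against the percentage of HEK cells, with circles and triangles for replicates 1 and 2 (which do not pair across percentages) and a line for additive mixing of the pure means with a coefficient of 10.0. H2AC25, H1-2, H2BC12 and H4C9 lie lowest at 0% HEK, H2BC15, H1-3 and H1-5 highest, and H4C3 scatters between 14.8 and 108 CPM.

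Pooled over the 7 conditions, H4C3 had the widest spread between libraries of 1 condition among the 18 members with a mean of at least 1 CPM. It had 57.1 and 47.2 CPM at 80% HEK, 25.8 and 38.3 CPM at 60%, 47.1 and 14.8 CPM at 50%, 108 and 29.4 CPM at 40%, and 15.5 and 29.9 CPM at 20%. High and low values occur side by side in the same condition, with no order over the percentages. Its SD within conditions was 0.91 on the log2(CPM + 0.5) scale, above that of 98.4% of the 4353 genes within a factor of 2 of its level, whose median was 0.31. The libraries with 40% HEK share a file group, so the difference between them occurs within a group. Its share of the counts of the class ran from 11.3% (50% HEK, replicate 2) to 60.2% (40% HEK, replicate 1).

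H2AC25 and H1-2, the next by mean CPM, had SDs of 0.34 and 0.25, near the medians of genes of like level (0.31 and 0.32). H4C12 (0.86) and H4C14 (0.84) were also wide, with single differences (2.63 in pure HEK and 2.74 at 60% HEK, log2 scale) above the largest of H4C3 (2.02), and both share most of their sequence with another H4 gene. H4C14 fell to 0.0266 CPM in the first library with 60% HEK, where H4C15 stood at 9.21 CPM, its highest value. H1-4 had 5.48 CPM in the first library with 50% HEK and 1.77 CPM in the second, against 0.207 to 1.39 CPM in all other libraries. In that first library H1-3 (1.87 CPM) and H1-5 (1.10 CPM) were also at their highest among the mixed libraries, except for H1-5 at 20% HEK, replicate 2 (1.14 CPM).

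**Figure D5:**
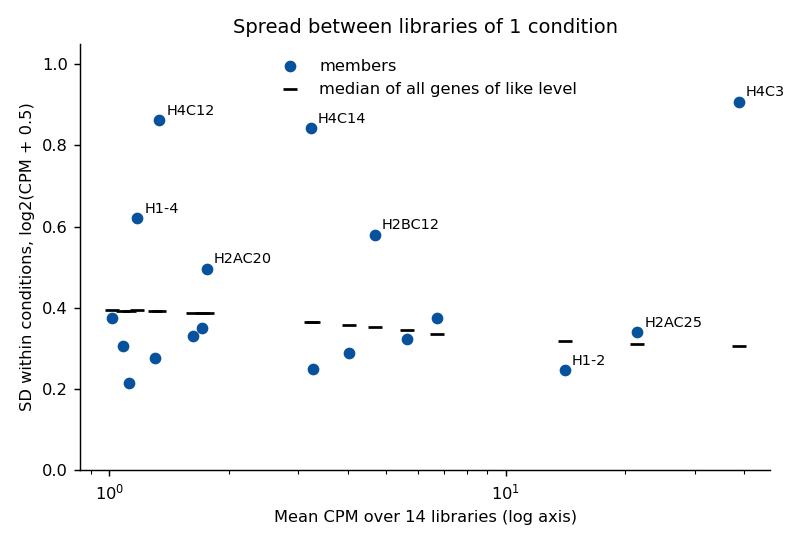
Spread between libraries of 1 condition, as the SD of log2(CPM + 0.5) pooled over 7 conditions of 2 libraries, against the mean CPM on a log axis, for the 18 members with a mean of at least 1 CPM. Black bars give the median of all genes within a factor of 2 of the same level. H4C3 lies at 0.91, above its bar at 0.31.

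Sequence shared with other genes limits which member a read belongs to. Of the 66 members, 15 shared over 50% of their 40-base words with transcripts of other genes and 24 shared none, among the latter H4C3, H1-2, H1-3 and H1-5. Of the members called between the pure lines, H2BC12 shared 64.5% and H2BC15 34.8%, besides H4C14 above. H3C14 and H3C15 had equal values in every library and cannot be separated. An annotated gene overlapped 32 members, on the same strand for 21 and on the opposite strand for 17. In 17 members the counted gene model was spliced or ran more than 200 bases past the stop codon, beyond the stem-loop. Among them were H2AC25, H2BC4, H2BC15 and H4C14, which were called between the pure lines. Whether their counts came from RNA that ends at the stem-loop was not tested. These 17 summed to 53.5 and 50.3 CPM in pure HEK and to 41.0 and 28.9 CPM in pure Jurkat, and the other 49 to 61.9 and 58.7 CPM and to 57.7 and 102 CPM.

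Of the 4 genes found by transcript only, H2AC19 had 11.5 and 10.8 CPM in pure HEK and 2.47 and 1.48 CPM in pure Jurkat, 5.92 times higher in HEK by pooled counts (counting interval 3.76 to 9.85). It shares 99.8% of its 40-base words, and its near copy H2AC18 was at 0 in every library, so the value may belong to either. H3C2 had 0.317 and 0.0660 CPM in pure HEK and 1.57 and 0.484 CPM in pure Jurkat, and H3C3 had no count.

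Genes that work with the histones were read from lists chosen by function. Their counts are to be set against the 24.2% of all genes tested that were called higher in HEK and the 19.0% called higher in Jurkat. Of 11 tested replication-independent histones, 3 were called higher in HEK and 1 in Jurkat, and their median log2 fold change was 0.28. H2AJ had 17.2 and 15.1 CPM in pure HEK and no count in pure Jurkat, at least 56.6-fold higher. MACROH2A2 had 31.7 ± 1.21 CPM in pure HEK and 0.354 ± 0.184 CPM in pure Jurkat (SD, n = 2, edgeR adjusted p = 0.00067). MACROH2A1, its paralog, was higher in Jurkat by a log2 fold change of -1.36 (SE 0.19, adjusted p = 0.0052 in edgeR). H2AZ1 was the third called higher in HEK (0.70, SE 0.19, adjusted p = 0.035 in edgeR). The most abundant of the list, H3-3A and H3-3B, which encode the replacement histone H3.3, were not called, at 1719 ± 157 and 1156 ± 123 CPM in pure HEK and 1235 ± 145 and 846 ± 177 CPM in pure Jurkat.

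Of 16 genes of histone transcription and 3′ end processing, none was called higher in HEK and 4 were called higher in Jurkat: NPAT, which activates histone transcription in S phase, with a log2 fold change of -0.89, CASP8AP2 with -1.11, the exonuclease ERI1 with -0.93 and the cap-binding NCBP2 with -1.25. SLBP, which binds the stem-loop, had 80.2 and 61.2 CPM in pure HEK and 81.2 and 117 CPM in pure Jurkat and was not called (edgeR, adjusted p = 0.094). Of 8 genes of histone mRNA decay, TUT7, which adds uridines to histone mRNA, and the exonuclease XRN1 were called higher in Jurkat (-1.24 and -1.36) and none in HEK. Of 14 chaperones, CHAF1B was called higher in HEK (0.83) and ASF1A, HJURP and DAXX higher in Jurkat (-1.60, -2.54 and -1.46). Of 19 S phase genes, PCNA (0.67) and CCNE1 (1.98) were called higher in HEK, and MCM6, TYMS and CDK2 (-1.08, -1.51 and -1.21) higher in Jurkat. The lists' median log2 fold changes were -0.58, -0.31, -0.51 and 0.14, in the same order, beside 0.07 for all genes tested. By the mean CPM of both lines, the most abundant genes of the last 3 lists were not called. They were UPF1 and DIS3 for decay, NAP1L1 and SSRP1 for chaperones, and RRM1 and MCM4 for S phase. In pure Jurkat alone, the called TUT7 (151 CPM) lay above UPF1 (141 CPM), and the called XRN1 (112 CPM) above DIS3 (97.9 CPM).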

How the data were processed

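Processed tables of 14 libraries were analysed. The authors aligned the reads with STAR 2.6.1b to GRCh38 and the ERCC sequences and deposited RSEM 1.3.1 expected counts, not normalized, for each library. The deposited TPM and FPKM are the authors' values scaled by transcript length and depth, and the FPKM were not used. The libraries are strand-specific by protocol, but the annotation release and the strand setting of the counting are not given in the sources used here. The series table of counts was not used.

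Members were matched to GENCODE 44 by identifier. CPM were computed from expected counts over the gene rows without the 92 ERCC rows. Counts were rounded and tested with edgeR 4.0.16 (filterByExpr, TMM, glmQLFit, glmQLFTest), with Benjamini-Hochberg adjustment over all genes tested at 0.05. The scripts were tested on simulated data. DESeq2 1.42.0 was an alternative. Replicates of a condition differed by more than sampling noise (chi-square per degree of freedom 18.4 to 129) and were kept separate. Named in full were the 10 members with the highest TPM in the pure libraries and the members called between the lines, and from each list the most abundant genes and those called. Members and lists were chosen with earlier results of these data known.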

Additional observations from a re-analysis of the deposited data

How the results depend on the processing

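Counting depth limits the low members: in the shallowest library 3 counts equal 0.671 CPM. The filter on low counts left 51 of 66 members out of the test between the pure lines. H2AC25 and H1-3 kept their direction and call in every alternative that tested them. With library sizes from spike-in totals, the median log2 fold change of all genes moved from 0.07 to 3.61, the members called were 12 of 15 higher in HEK (92.5% of all genes) and 1 higher in Jurkat (3.22%), the slopes gave 17 of 33 rising (73.7% of all genes) and 0 falling (1.22%), and H2AC20 (2.77), H4C3 (2.28) and H2BC15 (1.41) turned to higher in HEK, each still below that median. H4C3 also turned, to 0.15, without pure Jurkat replicate 2, and was -1.93 without replicate 1. Members called higher in Jurkat numbered 8 of 37 with all 14 libraries in 1 fit (17.9% of all genes) and 10 of 57 with no filter on low counts (11.2% of all genes), where H4C3 was called as well (-1.10). Higher in HEK were 6 of 37 (23.8% of all genes) and 7 of 57 (16.9%) in these 2 fits. DESeq2 called 4 of 46 members higher in HEK (15.6% of all genes) and 6 higher in Jurkat (13.1%). Leaving out each pure library gave 1 to 5 members higher in HEK (11.0% to 19.6% of all genes) and 2 to 3 higher in Jurkat (8.46% to 16.5%). Members called falling with the HEK percentage numbered 2 with DESeq2 (5.21% of all genes) and with no filter (2.42%), 0 with the expected HEK share of RNA (5.18%) or with file group as a term (2.39%), and 0 to 1 when each mixed library was left out (2.85% to 5.04%). The log2 ratio of the summed level between the lines was -0.03, 3.30 per spike-in count and 0.34 without H4C3. Without H4C3 the summed level was 90.7 CPM in pure HEK and 71.6 CPM in pure Jurkat, and with the 4 genes found by transcript, an alternative chosen after seeing the data, it was 124 CPM in pure HEK. The mean excess over additive mixing ran from 0.10 to 0.31 on the log2 scale over its 17 alternatives. Those that changed the coefficient or the HEK share could hardly move it, since the pure means of the class were close. The causes of these shifts were not tested. No paired analysis was possible because the labels number no replicates across percentages.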
